A study of Mus musculus with 15 samples.

Results

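Colony stimulating factors (CSFs) are the growth and survival signals of myeloid cells, and 6 genes of this system were followed: the ligand Csf1 and the receptor genes Csf1r, Csf2ra, Csf2rb, Csf2rb2 and Csf3r. They were taken by gene symbol from the 38924 genes in the deposited tables. All 6 passed the filter on low counts (a depth-scaled count, cpm, of at least 1 in at least 2 libraries), which left 14967 genes to test. RNA had been sequenced from CD11b+ brain cells of 12-month-old male wild type C57BL/6J mice, sorted by flow cytometry into a CD45hi and a CD45lo population. The mice had eaten either a control chow diet (CD, LabDiet 5K52) or a western diet (WD, TestDiet 5W80, given from young adulthood, with added fructose syrup, milk fat and milk protein and less fiber). There were 4 libraries of CD CD45hi cells, 4 of CD CD45lo cells, 3 of WD CD45hi cells and 4 of WD CD45lo cells. All brains were perfused with a salt solution, and the olfactory bulb and cerebellum had been removed. CD3e+ cells were gated out and the rest split by CD11b and CD45, so the CD45hi gate can hold other CD11b+ leukocytes, while most cells of the CD45lo gate are taken to be microglia. The labels do not name the animals behind the libraries, so the p-values below measure the spread between these libraries.

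CSF-1, the product of Csf1, signals through the receptor tyrosine kinase CSF1R, on which microglia and most macrophages depend for survival, and IL-34 is the other ligand of that receptor. The receptor for GM-CSF pairs a specific alpha chain (Csf2ra) with the common beta chain (Csf2rb), which also serves the receptors for IL-3 and IL-5. Mice have an additional beta chain gene, Csf2rb2, whose product serves the IL-3 receptor alone. The G-CSF receptor (Csf3r) is best known for driving the production and release of neutrophils.

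The 2 beta chain genes are close copies, and sequence from both is shown because it sets how well their counts can be kept apart. In the GENCODE M21 annotation (GRCm38, the same assembly as the mm10 build of the files) Csf2rb (ENSMUSG00000071713) lies at chr15:78325752-78353847 on the plus strand and Csf2rb2 (ENSMUSG00000071714) at chr15:78282507-78305721 on the minus strand. They point away from each other, with start sites 20031 bases apart. Their coding sequences are 2688 and 2634 bases long and identical at 95.2% of the 2628 aligned positions. The library reads were 75 bases long, and 518 of the 4690 windows of that length in the Csf2rb transcript also occur unaltered in the Csf2rb2 transcript. The read-length window of a single coding exon with the most differences lies in exon 4 of both genes, at chr15:78338905-78338979 for Csf2rb and chr15:78294352-78294426 for Csf2rb2. Capitals mark the 14 bases that differ.
Csf2rb: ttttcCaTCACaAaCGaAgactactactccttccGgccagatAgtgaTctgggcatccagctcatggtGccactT
Csf2rb2: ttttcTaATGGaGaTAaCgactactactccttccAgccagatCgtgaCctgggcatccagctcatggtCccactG
In exon 7 a window of the same length has no difference at all, at chr15:78341391-78341465 in Csf2rb and chr15:78291844-78291918 in Csf2rb2.
Both: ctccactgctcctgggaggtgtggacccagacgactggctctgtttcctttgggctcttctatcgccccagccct
A read pair from the former window can be given to 1 gene, whereas one that falls wholly within sequence such as the latter is divided by estimation. The deposited estimated counts of both genes and of Csf3r were not whole numbers in 15 of 15 libraries, and those of Csf1r in 13 of 15. Those of Csf1 and Csf2ra were whole in every library.

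Total estimated counts per library ran from 11951412 to 17912272, so that 3 counts correspond to 0.156 to 0.282 normalised cpm. In a principal component analysis CD CD45hi library 4 and WD CD45hi library 1 stood apart from the other CD45hi libraries along the second component (93 and -134.7, where the others lay between 6.1 and 21.5), and results that change without them are given as such. The message for CD45 itself (Ptprc) was 2.22-fold higher in CD45hi than CD45lo cells on the CD and 2.94-fold higher on the WD (FDR 0.00438 and 8.05e-05, edgeR's glmTreat at 1.5-fold). Microglia markers were present in all libraries but lower in the CD45hi gate: the 9 genes summed to 6420 to 7783 cpm in CD CD45hi, 16443 to 17504 in CD CD45lo, 7114 to 7645 in WD CD45hi and 13591 to 16919 in WD CD45lo libraries. Markers of 9 neutrophil genes summed to 1088 to 2950, 61.4 to 336.5, 718.9 to 1354 and 47.98 to 136.5 cpm in the same order of groups. For 6 monocyte genes the sums were 533.1 to 985.4, 26.37 to 97.82, 554.2 to 815.4 and 17.73 to 113.3 cpm. For 6 genes of border macrophages, which live in the meninges and around vessels, they were 1867 to 1983, 99.6 to 214.7, 680.5 to 2499 and 56.45 to 123.9 cpm. With glmTreat, 6 of 9 neutrophil, 4 of 6 monocyte and 6 of 6 border macrophage genes were higher in CD45hi cells on each diet, as was 1 of 5 dendritic cell genes. All 9 microglia genes were lower on the CD and 6 of 9 on the WD. Over 5 lymphocyte genes (Cd3e, Cd79a, Ms4a1, Nkg7 and Gzma) the sums were 10.11 to 41.32 cpm in CD CD45hi and 19.66 to 86.95 in WD CD45hi libraries, against at most 0.571 in CD CD45lo and 0.148 in WD CD45lo libraries. Of the 4 that were tested, glmTreat called 1 higher in CD45hi cells on the CD (Nkg7) and 2 on the WD (Nkg7 and Gzma), while Cd3e had at most 4 counts in any library. The 5 markers of neurons, astrocytes, pericytes, endothelium and oligodendrocytes summed to 16.1 cpm or less in every library. The part that these other cells had in the differences between gates described next was not tested, and in sorted bulk RNA a change in the number of cells of a type cannot be told apart from a change in RNA per cell.

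The CSF system did not move as a block between the CD45hi and CD45lo populations: the ligand gene Csf1 and the GM-CSF receptor genes Csf2ra and Csf2rb were higher in CD45hi cells, Csf1r was lower, and no difference was called for Csf2rb2 or Csf3r. The calls of Csf2rb did not hold when its counts were summed with those of Csf2rb2. Nor did the WD call of Csf2ra hold without certain single libraries, as given below. In edgeR's quasi-likelihood test for any change (FDR under 0.05 over all genes), 3 of 6 members were higher and 1 of 6 lower on each diet, the same genes both times. Of all genes tested, 5.95% were called higher and 2.08% lower on the CD by that test, and 6.22% higher and 2.9% lower on the WD. The stricter glmTreat, which asks for evidence of a change beyond 1.5-fold, called 1 of 6 members on each diet, Csf2ra on the CD and Csf1 on the WD, both higher. That test called 3.39% of all genes higher and 0.588% lower on the CD, and 4.01% higher and 1.17% lower on the WD. Without overlap of libraries in normalised cpm, 3 of 6 members were higher and 1 of 6 lower in CD45hi cells on each diet; over all genes tested 8.26% were wholly higher and 8.22% wholly lower on the CD, and on the WD 1501 of the 14967 genes were wholly higher and 13.4% wholly lower. The median log2 fold change of the members was 0.60 on the CD and 0.38 on the WD, beside 0.04 and 0.0 for all genes tested.

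**Figure D1:**
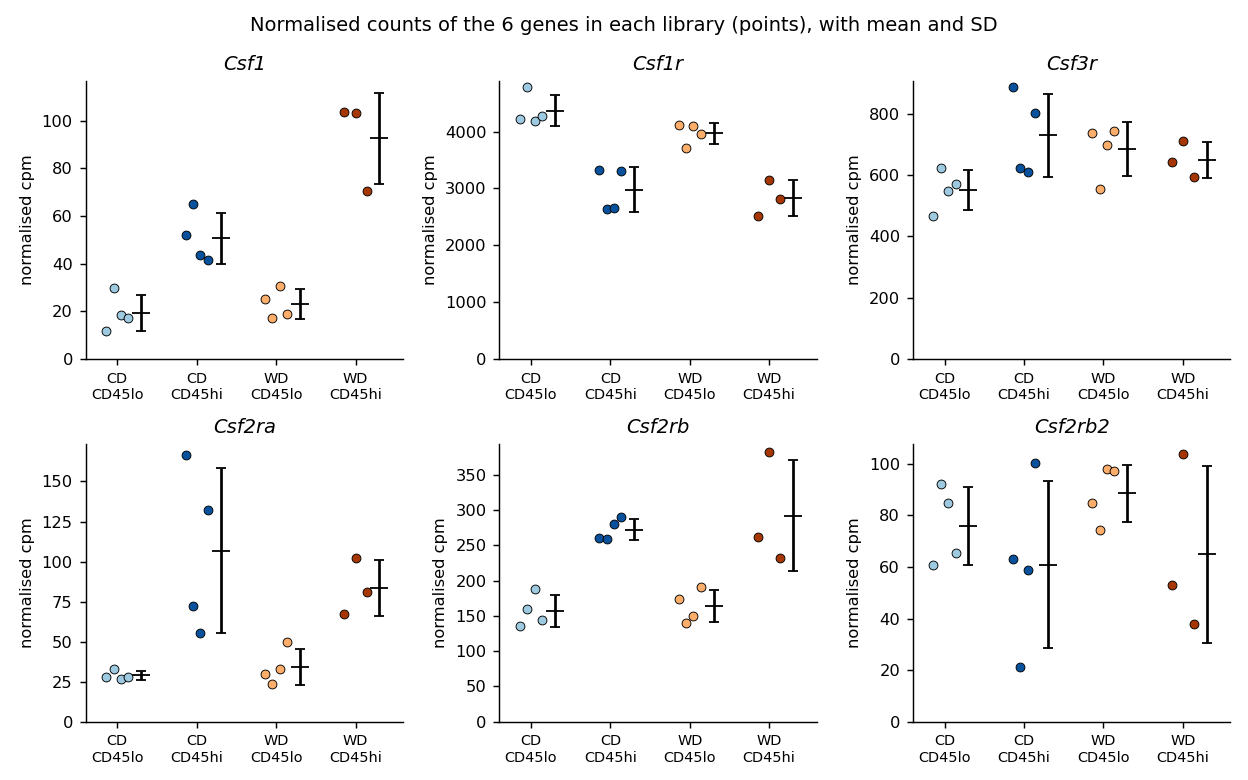
Normalised cpm (vertical axes, from 0) of the 6 genes in each of the 15 libraries (points), with the mean and SD of each group beside them. Csf1, Csf2ra and Csf2rb sit higher and Csf1r lower in the CD45hi groups without overlap on either diet (over all genes tested, 8.26% were so higher and 8.22% so lower on the CD, and 1501 of 14967 genes higher and 13.4% lower on the WD), while the populations overlap for Csf3r and Csf2rb2 on this scale. On the TPM scale, not shown here, Csf2ra and Csf2rb overlapped between the WD populations.

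Csf1 (ENSMUSG00000014599, chr3:107741048-107760469, minus strand) had the largest ratio between its highest and lowest group means among the members. In CD CD45lo cells its normalised level was 11.8, 29.7, 18.5 and 17.0 cpm in replicates 1 to 4. In CD CD45hi cells it was 51.9, 65.2, 43.8 and 41.7 cpm. In WD CD45lo cells it was 25.4, 17.1, 30.6 and 18.8 cpm, and in WD CD45hi cells 103.8, 103.3 and 70.5 cpm. Every CD45hi library therefore lay above every CD45lo library, and every WD CD45hi library above every CD CD45hi library. The group means were 19.3 ± 7.51 (SD, n = 4), 50.6 ± 10.7 (n = 4), 23.0 ± 6.22 (n = 4) and 92.6 ± 19.1 cpm (n = 3) in that order. Between the populations the log2 fold change was 1.39 on the CD (SE 0.317, a 2.63-fold difference with a 95% interval of 1.65 to 4.18) and 2.01 on the WD (SE 0.338, 4.02-fold, 2.46 to 6.60). The test for any change called both (edgeR FDR 0.00949 and 0.000774), and glmTreat the WD difference alone (FDR 0.0598 on the CD and 0.0047 on the WD). Without CD CD45lo replicate 2, the highest of its group, Csf1 passed glmTreat on the CD as well, with a log2 fold change of 1.66. The difference between the diets' fold changes was itself not called (log2 difference 0.615, SE 0.457, interaction FDR 0.706), so a larger change on the WD was not shown.

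Csf1r (ENSMUSG00000024621, chr18:61100598-61132149, plus strand), the receptor for CSF-1 and IL-34, was the most abundant message of the system and the only member called lower in CD45hi cells. CD CD45lo libraries held 4229, 4775, 4190 and 4282 cpm and CD CD45hi libraries 3327, 2640, 2647 and 3306 cpm. WD CD45lo libraries held 4119, 3706, 4095 and 3956 cpm and WD CD45hi libraries 2515, 3151 and 2819 cpm. No CD45hi library reached the lowest CD45lo library, yet the levels in the CD45hi gate were never below 2515 cpm. The log2 fold change was -0.55 on the CD (edgeR FDR for any change 0.00156) and -0.49 on the WD (FDR 0.00767), so that CD45hi cells held 0.682 of the CD45lo level on the CD (95% interval 0.589 to 0.790) and 0.713 on the WD (0.608 to 0.836). Neither difference was called against the 1.5-fold limit (glmTreat FDR 0.874 and 0.888). On the TPM scale (transcript share, which divides by transcript length and is not rescaled between libraries by TMM) the same cells held 2214 ± 88.8 and 1097 ± 106 TPM on the CD, and 2020 ± 133 and 982 ± 91.9 TPM on the WD, a wider gap than on the TMM-normalised scale. Genes outside the system shifted the same way between these scales, as given with Csf3r below. For comparison the 9 microglia markers had median log2 fold changes of -1.24 on the CD and -1.15 on the WD.

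Csf2ra (ENSMUSG00000059326, chr19:61223957-61228429, minus strand), the alpha chain that gives the GM-CSF receptor its specificity, had the largest CD45hi to CD45lo ratio of the members on the CD. CD CD45lo libraries held 27.9, 32.9, 26.6 and 28.1 cpm, and CD CD45hi libraries 166.4, 72.5, 55.7 and 132.5 cpm. WD CD45lo libraries held 29.8, 23.8, 33.2 and 49.9 cpm, and WD CD45hi libraries 67.2, 102.4 and 81.0 cpm. The populations did not overlap on either diet (on the TPM scale the WD groups did, at 52.1 to 76.8 against 27.7 to 52.6 TPM), but the CD CD45hi libraries spread widely, over a coefficient of variation of 48.4% against 9.58% in CD CD45lo. The log2 fold change was 1.89 on the CD (SE 0.332, 3.70-fold, 95% interval 2.27 to 6.01, glmTreat FDR 0.00761 in edgeR) and 1.29 on the WD (SE 0.346, 2.44-fold, 1.47 to 4.05, glmTreat FDR 0.109). The WD difference passed only the test for any change (edgeR FDR 0.0247), and it missed that test's threshold without WD CD45hi replicate 2 or without any 1 of WD CD45lo replicates 1, 2 and 3 (FDR 0.0645 to 0.0801). The difference between the diets was not called (log2 difference -0.60, SE 0.475, interaction FDR 0.728).

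Csf2rb, the common beta chain, was higher in CD45hi cells by a nearly equal amount on both diets. CD CD45lo libraries held 135.1, 159.8, 188.1 and 144.6 cpm, and CD CD45hi libraries 261.0, 258.6, 279.9 and 289.9 cpm. WD CD45lo libraries held 173.6, 140.0, 150.4 and 190.2 cpm, and WD CD45hi libraries 262.2, 381.5 and 232.3 cpm. The populations did not overlap on this scale, and WD CD45hi replicate 2 was the highest of all. On the TPM scale they overlapped on the WD, at 67.4 to 104.8 TPM in CD45hi and 59.7 to 74.7 in CD45lo libraries. The log2 fold change was 0.80 on the CD (SE 0.173, 1.74-fold) and 0.84 on the WD (SE 0.185, 1.79-fold), with edgeR FDR 0.00686 and 0.00718 for any change and 0.309 and 0.215 by glmTreat. When the counts of Csf2rb and its copy Csf2rb2 were summed into a single feature, the log2 fold changes were 0.52 and 0.50 and no longer called (FDR for any change 0.104 and 0.125).

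Csf2rb2, the beta chain of the IL-3 receptor alone, varied more within the CD45hi groups than between populations. CD CD45lo libraries held 60.8, 92.4, 84.8 and 65.4 cpm, and CD CD45hi libraries 63.0, 21.4, 58.7 and 100.5 cpm. WD CD45lo libraries held 84.7, 74.4, 97.8 and 97.2 cpm, and WD CD45hi libraries 53.1, 103.7 and 38.0 cpm. The populations overlapped on both diets on this scale, but on the TPM scale WD CD45hi libraries (11.4 to 29.5 TPM) lay wholly below WD CD45lo libraries (32.8 to 41.3 TPM). How many of all genes were so separated in TPM was not computed. The log2 fold change was -0.32 on the CD (SE 0.371, edgeR FDR for any change 0.725) and -0.45 on the WD (SE 0.404, FDR 0.554), with 95% intervals from 0.467-fold to 1.38-fold and from 0.406-fold to 1.33-fold.

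The balance of the beta chains was compared within each library. On the TPM scale Csf2rb2 made up 31.8%, 37.4%, 31.8% and 31.9% of the summed Csf2rb2 and Csf2rb levels in CD CD45lo libraries and 19.97%, 7.87%, 17.8% and 26.4% in CD CD45hi libraries. It made up 33.5%, 35.5%, 40.2% and 34.6% in WD CD45lo libraries and 17.3%, 21.9% and 14.5% in WD CD45hi libraries. No CD45hi library reached the lowest CD45lo library on either diet. The log2 ratio of Csf2rb2 to Csf2rb was lower in CD45hi cells by 2.46-fold on the CD (difference -1.30, two-sided exact permutation p = 0.0286) and by 2.60-fold on the WD (difference -1.38, two-sided exact permutation p = 0.0286), each the smallest p that its number of libraries allows. After Benjamini-Hochberg adjustment over the 4 ratio tests both stood at 0.0571, and neither passed. Both were already at their smallest p, so whether they could pass depended on the p of the Csf2ra ratio tests. The adjusted values therefore cannot decide whether the beta chain balance differed. The ratio of Csf2ra to Csf2rb differed by 0.95 on the CD and 0.51 on the WD on the log2 scale, with some overlap of libraries (two-sided exact permutation p = 0.0857 each, adjusted 0.0857). Since shared reads of the beta chain genes are divided by estimation, their shares carry an error that the spread between libraries need not show.

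**Figure D2:**
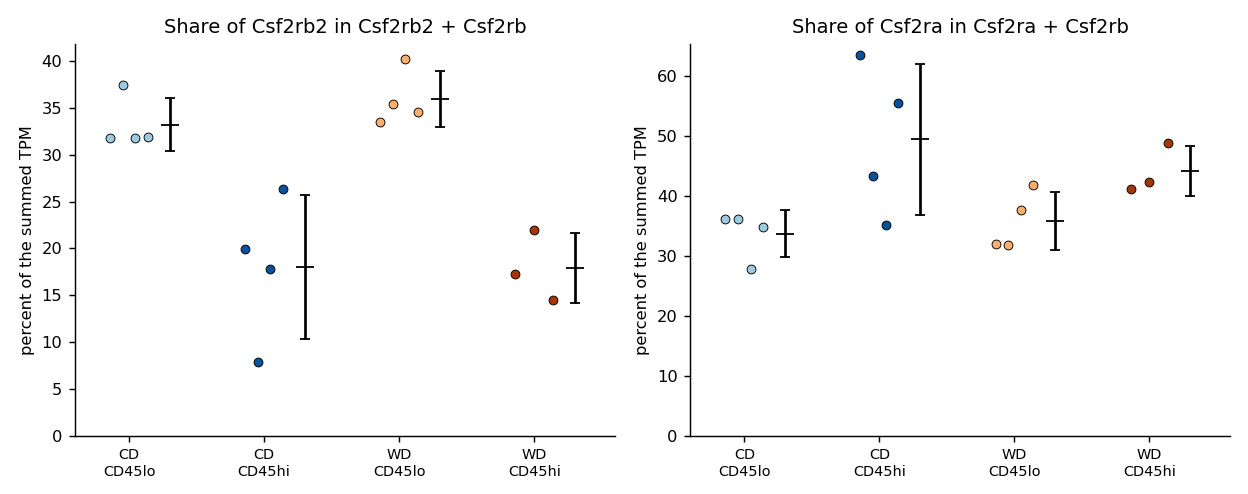
Share of Csf2rb2 in the summed TPM of the beta chain genes (left) and of Csf2ra in the summed TPM of Csf2ra and Csf2rb (right), in percent from 0, for each library (points) with the group mean and SD. Csf2rb2 holds 31.8% to 40.2% in CD45lo libraries and 7.87% to 26.4% in CD45hi libraries, while the Csf2ra shares overlap.

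Csf3r (ENSMUSG00000028859, chr4:126024550-126044440, plus strand), the G-CSF receptor, was abundant in both gates. CD CD45lo libraries held 464.9, 622.2, 548.1 and 570.3 cpm, and CD CD45hi libraries 884.9, 623.7, 609.0 and 800.6 cpm. WD CD45lo libraries held 737.2, 555.5, 698.0 and 744.5 cpm, and WD CD45hi libraries 643.2, 711.1 and 593.2 cpm. The populations overlapped on both diets on this scale. The log2 fold change between populations was 0.40 on the CD (SE 0.147, edgeR FDR for any change 0.112) and -0.07 on the WD (SE 0.159, FDR 0.834). On the TPM scale Csf3r stood at 544 ± 97.9 in CD45hi and 568 ± 60.9 in CD45lo cells on the CD, so that the direction turned. On the WD its CD45hi libraries (338.8 to 560.9 TPM) lay wholly below its CD45lo libraries (581.5 to 791.8 TPM). The lowest value was that of WD CD45hi replicate 1, where the estimated effective length of Csf3r was 2485.73 bases. In replicates 2 and 3, at 560.9 and 459.3 TPM, that length was 1602.8 and 1722.89 bases. The part of this length in the low value was not tested. A downward shift from cpm to TPM was not particular to Csf3r. In CD CD45hi and CD45lo cells Itgam, the gene of CD11b, averaged 1778 and 2095 cpm but 586.5 and 962.6 TPM. Ptprc averaged 925.3 and 417.5 cpm but 448.0 and 268.3 TPM there. The share of all genes without overlap in TPM was not computed. The share of neutrophil RNA in these levels was not tested.

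Between diets no member was called in either population. Among CD45hi cells 0.254% of all genes were called by edgeR's test for any change (38 genes). That share was not firm, since DESeq2 called 1030 genes and edgeR with only the 2 groups compared called 0. The largest difference among the members there was that of Csf1, with a log2 fold change of 0.87 for WD over CD (SE 0.333, 1.83-fold, 95% interval 1.12 to 2.98, unadjusted p = 0.0182 by edgeR, FDR 0.194). Its WD CD45hi libraries (70.5 to 103.8 cpm) all exceeded its CD CD45hi libraries (41.7 to 65.2 cpm), as was so for 2.58% of genes tested. The other 5 members had log2 fold changes between -0.36 (Csf2ra) and 0.10 (Csf2rb). Among CD45lo cells 0 of the 14967 genes were called (0%) by edgeR, where 123 had an unadjusted p under 0.05 and DESeq2 called 4. There Csf3r had a log2 fold change of 0.31 (SE 0.147, unadjusted p = 0.0496 by edgeR, FDR 1), and 3 of its 4 WD libraries lay above all CD libraries. Csf1r in CD45lo cells was lower in all WD libraries (3706 to 4119 cpm) than in any CD library (4190 to 4775 cpm), with a log2 fold change of -0.14 (SE 0.0999, FDR 1). Such a complete separation downward was seen for 1.29% of genes tested. The test of whether the difference between populations itself differed between diets called none of the members, and 0.00668% of all genes (1 gene, against 188 by DESeq2). Csf3r came closest among the members, with a log2 difference of -0.48 (SE 0.216, unadjusted p = 0.041 by edgeR, FDR 0.472).

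**Figure D3:**
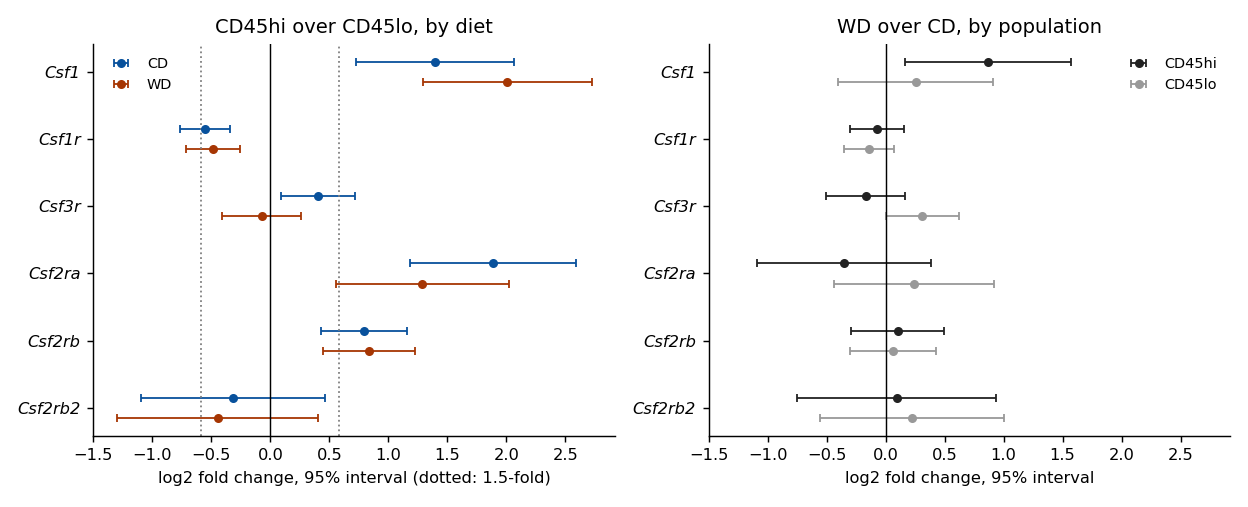
Log2 fold changes of the 6 genes with 95% intervals (horizontal axes), CD45hi over CD45lo on each diet (left, dotted lines at 1.5-fold) and WD over CD in each population (right). Csf1, Csf2ra and Csf2rb lie to the right of 0 and Csf1r to the left on both diets, and of the diet intervals those of Csf1 in CD45hi cells (from 0.17) and Csf3r in CD45lo cells (from 0.00) lie above 0.

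Because TPM divides by transcript length, the members could be ranked against each other within a group. Csf1r led in every group, followed by Csf3r, and no libraries of these 2 genes overlapped with each other or with the next gene in any group. In CD CD45hi cells the mean levels were 1097 ± 106 TPM for Csf1r, 544 ± 97.9 for Csf3r, 86.3 ± 40.1 for Csf2ra, 81.4 ± 2.83 for Csf2rb, 29.1 ± 4.30 for Csf1 and 18.4 ± 8.83 for Csf2rb2 (SD, n = 4). There, the libraries of Csf2ra overlapped with those of Csf2rb, and those of Csf1 with those of Csf2rb2, and these differences were not tested. Within libraries Csf1 lay above Csf2rb2 in all but replicate 4 (26.0 and 28.6 TPM). In CD CD45lo cells the order was Csf1r (2214 ± 88.8), Csf3r (568 ± 60.9), Csf2rb (64.5 ± 9.07), Csf2ra (32.4 ± 2.38), Csf2rb2 (32.1 ± 5.59) and Csf1 (14.8 ± 6.31), with overlap of Csf2ra and Csf2rb2 alone among neighbours. WD CD45lo cells had the same order and the same overlap, at 2020 ± 133, 703 ± 89.1, 67.3 ± 7.81, 38.1 ± 10.5, 37.6 ± 3.58 and 18.1 ± 5.64 TPM. In WD CD45hi cells Csf1 (58.9 ± 13.3 TPM, n = 3) overlapped with Csf2ra (64.4 ± 12.4), which overlapped with Csf2rb (82.3 ± 19.9), and Csf2rb2 was last at 18.8 ± 9.46, behind Csf1r (982 ± 91.9) and Csf3r (453 ± 111). Csf1 thus stood last of the members in both CD45lo groups, and in WD CD45hi cells it lay above Csf2rb2 without overlap.

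The ligands of these receptors other than CSF-1 were all but absent as messages. Csf2 (GM-CSF), Csf3 (G-CSF), Il3 and Il5 had no count in any of the 15 libraries, against a floor of 3 counts or 0.156 to 0.282 cpm. Il34 reached 2 counts in a single CD CD45lo library and 0 in the others. Of the partner chains, Il5ra stayed below the filter in all groups. Il3ra, the alpha chain of the IL-3 receptor, reached 26.8 cpm in WD CD45hi replicate 1, one of the libraries that stood apart, and at most 1.94 cpm in the other 14.

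A list of 29 genes, called partner genes here, held ligands, chains, signalling and transcription factors of these receptors. It also held the related receptor kinases Flt3 and Kit. Of the 29, 23 passed the filter, and Cebpb was the only one called beyond 1.5-fold between the populations, 1 of 23 on each diet beside 3.39% and 4.01% of all genes called higher. Cebpb, a transcription factor of macrophage activation and emergency granulopoiesis, averaged 21.8 ± 11.1 cpm in CD CD45hi against 3.73 ± 0.739 in CD CD45lo cells (log2 fold change 2.54, SE 0.453, glmTreat FDR 0.00485 in edgeR). On the WD it averaged 21.4 ± 2.32 against 4.70 ± 0.860 cpm (2.18, SE 0.467, FDR 0.0194). The test for any change called 4 of the 23 higher and 0 lower on the CD, and 4 higher and 2 lower on the WD, beside 5.95% higher and 2.08% lower of all genes on the CD and 6.22% and 2.9% on the WD. Tyrobp, which encodes the adaptor DAP12, was higher on both diets (log2 fold change 0.52 and 0.88, edgeR FDR 0.0492 and 0.00226). On the CD Flt3, a receptor kinase of dendritic cell and progenitor growth (1.62, FDR 0.0267), and Socs3, a feedback inhibitor of G-CSF and IL-6 signalling (1.31, FDR 0.0344), were also higher. On the WD the signalling genes Stat3 (0.88, FDR 0.0129) and Jak2 (0.77, FDR 0.0497) were higher, while Inpp5d, which encodes the phosphatase SHIP1 (-0.61, FDR 0.0101), and Cebpa, a transcription factor of myeloid differentiation (-0.93, FDR 0.0367), were lower. Some genes called on 1 diet only came close on the other, with Inpp5d at -0.43 on the CD (FDR 0.0502) and Socs3 at 1.18 on the WD (FDR 0.0673). Partner genes were not followed through the alternative settings, so calls near the threshold were not checked. None of the 23 was called by diet in either population or in the interaction. Spi1, which encodes PU.1, the factor that drives Csf1r and other myeloid receptor genes, had log2 fold changes of 0.93 on the CD and -0.25 on the WD, with overlap of the populations and FDR 0.138 and 0.752. The median log2 fold change of the 23 genes was 0.22 on the CD and 0.55 on the WD, beside 0.04 and 0.0 for all genes tested.

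**Figure D4:**
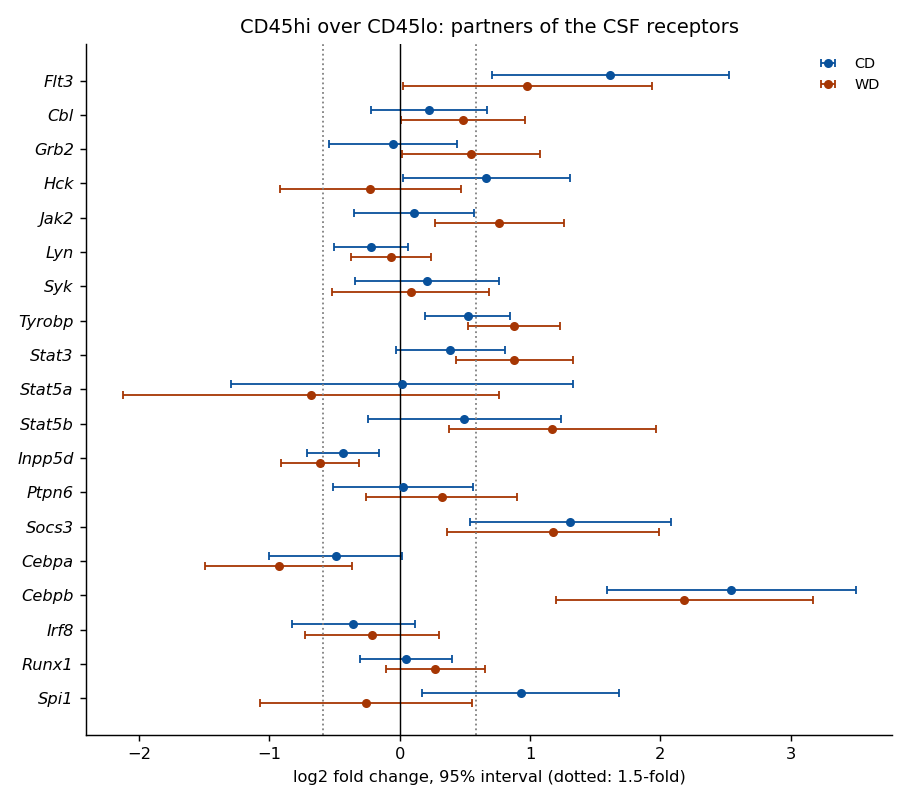
Log2 fold changes of CD45hi over CD45lo with 95% intervals on each diet for the 19 tested partner genes whose mean reached 10 cpm in at least 1 group, with dotted lines at 1.5-fold. Cebpb lies farthest to the right on both diets (2.54 and 2.18). The interval of Inpp5d lies wholly to the left of 0 on both diets, and that of Cebpa on the WD.

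The genes whose profiles over the 15 libraries were most like each member's were found by the root mean square difference of centred log2 cpm among 8253 genes with a mean of at least 10 cpm. For Csf1r these were Slc29a3, a lysosomal nucleoside transporter (0.123), and Sirpa, an inhibitory receptor (0.124), where Csf1r itself varied by 0.29 around its mean. For Csf3r they were Cd68 (0.154) and Uba7 (0.182), against 0.231 for its own variation. For Csf1 they were Sept11 (0.341) and Sptbn1 (0.369), against 0.954. For Csf2ra they were Svil (0.265) and Zyx (0.31), both linked to the actin skeleton, against 0.88. For Csf2rb they were the ribosomal protein genes Rpl6 (0.153) and Rpl18 (0.189), against 0.445. For Csf2rb2 they were Sh2b3 (0.281) and Abl1 (0.285), against 0.596. The profile of no member was closest to that of another member, and Csf2rb and its copy Csf2rb2 had different nearest genes. All libraries of both populations enter these distances, which carry no test.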

How the data were processed

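Poly(A) RNA of sorted CD11b+ cells had been sequenced as read pairs, and the authors had trimmed the reads and estimated gene counts and TPM with RSEM 1.2.12 (per the labels) on mm10. The annotation release and the use of strand are not given in the sources used here. The deposited expected counts of 15 libraries (11951412 to 17912272 in total) were rounded, and genes that did not reach 1 cpm in 2 or more libraries were dropped. A quasi-likelihood model with 4 groups was fitted in edgeR 4.0.16 (R 4.3.3, legacy form, TMM normalization). Populations were compared with glmTreat at 1.5-fold and with glmQLFTest for any change, and diets and the interaction with glmQLFTest, with Benjamini-Hochberg FDR under 0.05 over all genes. Normalised cpm are counts scaled to the TMM-adjusted library size. The deposited TPM served for levels between genes and for chain ratios, which were compared by exact permutation; FPKM were not used. DESeq2 1.42.0 and limma 3.58.1 were alternatives. The fit was tested on simulated data. Replicates of a group differed by 20.6 to 135 times sampling noise (chi-square per degree of freedom over 21 pairs), so none was merged as a repeat of another. The named genes were the 6 members, every called partner gene and the 2 nearest profiles per member; Spi1 and the ligand and chain genes with few counts were named after their values were seen. Members and lists were chosen with earlier results of these data known. The promoter and protein sequences are not used here. A lymphocyte marker of the list is not reported here.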

Additional observations from a re-analysis of the deposited data

Results flagged for a closer look

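Among 48 sets of 4 libraries tested, 7 held a library far from the other 3 (its gap to the nearest, as a share of the whole range, above Dixon's critical value), and chance flags about 1 in 20 such sets. Csf1r in CD CD45lo cells was highest in replicate 2, at 4775 cpm against 4190 to 4282 (gap 0.843 of the range). The log2 ratio of Csf2rb2 to Csf2rb in CD CD45lo cells was also highest in replicate 2, at -0.742 against -1.104 to -1.095 (0.975). The log2 ratio of Csf2ra to Csf2rb in CD CD45lo cells was lowest in replicate 3, at -1.372 against -0.909 to -0.825 (0.846). Among the partner genes, Cebpb was highest in CD CD45hi replicate 4, at 38.43 cpm against 15.92 to 16.64 (0.968), and Jak2 lowest in CD CD45hi replicate 3, at 44.16 cpm against 73.92 to 76.41 (0.923). Tyrobp was highest in WD CD45lo replicate 3, at 495.3 cpm against 456.9 to 460.1 (0.917), and Stat3 in WD CD45lo replicate 1, at 160.6 cpm against 135.5 to 139.2 (0.851). CD CD45hi replicate 4 is a library that stood apart in the principal component analysis.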

How the results depend on the processing

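Of 1133 results of members under an alternative, 1097 kept their direction and side of the threshold, 9 lost and 12 gained a call and 15 changed sign, all of the last in comparisons of diets or interactions that were not called. Most fold changes between populations were counted once with the 1.5-fold limit and again for any change, so these are not 1133 separate values. Csf2ra on the CD stayed called in 29 of 29 alternatives (FDR up to 0.0426) and Csf1 on the WD in 28 of 29. Each alternative used its own test, and not all used glmTreat: among them were 2 settings of the less strict glmQLFTest, DESeq2 and limma-voom. The members called on the CD were 4 with no fold limit, 3 with the limit set afterwards and 2 with the edgeR 4 form, and 1 to 2 when 1 library was left out; on the WD they were 4, 3 and unchanged. Whether the library numbers mark shared animals was not settled. The deviations of same-numbered CD45hi and CD45lo libraries from their group means correlated at -0.022 to 0.069, and weak correlations cannot show that the samples were unpaired. With a replicate block by title number or by file-name number, glmTreat called 1 member on each diet. With a replicate block by title number within diet, an alternative chosen after seeing the data, it called 1 on the CD and 0 on the WD (Csf1: log2 fold change 1.94, FDR 0.0554). The test for any change then still called 4 on each diet, but with the block by file-name number 2 on the WD (Csf2rb and Csf2ra missed, FDR 0.0636 and 0.097). Among the 4 CD45lo libraries of the same diet, CD45hi libraries lay closest to that of their own number in 3 of 7 cases by title and 4 of 7 by file name. Under the block by title number no member was called between diets (the other blocks gave no such comparison), and under none of the 3 blocks was one called in the interaction (0). The ratio of Csf2rb2 to Csf2rb on the CD ranged from -1.58 to -0.89 and that of Csf2ra to Csf2rb from 0.67 to 1.23 with 1 library left out. Without CD CD45hi replicate 3 both passed (adjusted exact permutation p = 0.0381, differences -1.33 and 1.23). The ratio of Csf2rb2 to Csf2rb had been -1.30 with all libraries, already at its smallest unadjusted p. Its pass therefore followed from the joint adjustment with the Csf2ra ratio and not from a stronger difference. Values that changed sign were Csf1r for WD over CD in CD45hi cells (0.05 without CD CD45hi 4 and WD CD45hi 1; -0.16 to 0.0 with 1 library left out), Csf2rb in the interaction (-0.02 with the beta chain genes summed; -0.2 to 0.18) and Csf2rb2 in the interaction (0.35 without the same pair of libraries; -0.64 to 0.22). With 1 library left out, Csf2rb ranged from -0.14 to 0.24 and Csf2rb2 from -0.42 to 0.45 between diets in CD45hi cells, Csf2rb from -0.02 to 0.16 in CD45lo cells, and Csf1r from -0.02 to 0.14 in the interaction; the cause was not tested. With limma-voom the centre of all genes' fold changes between populations shifted to a median log2 value of -0.222 on the CD and -0.265 on the WD, and the members kept their directions between populations. Over all genes, those called between diets in CD45hi cells were 38, against 0 with only the 2 groups compared and 1030 by DESeq2, those between populations 595 on the CD (412 to 1202 over the alternatives) and 775 on the WD (353 to 1365), and those in the interaction 1 (0 to 188). Il5ra and Il34 stayed under the filter, so differences in them were not detectable at this depth, and the level of Il3ra in WD CD45hi cells rested on 1 library.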
